A study of Mus musculus with 18 samples.

Results

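The comparison described here sets 3 heart muscle libraries taken 6 h after myocardial infarction (MI) against 3 sham libraries, 6 of the 18 libraries of the series. The 6 libraries were chosen by their labels, not by their values. All came from male C57BL/6JR mice, 12 weeks old, operated under pentobarbital and killed under isoflurane, 1 library per mouse. At MI the left anterior descending coronary artery, which feeds the front wall of the left ventricle, was tied; in sham mice, the 0 h group, a suture was passed at what the labels call the inferior artery and left untied. Myocardial tissue is the stated source, with cardiomyocytes, the muscle cells, as the stated cell type. No isolation of cells and no part of the wall is described, so how much of each sample lay within the infarct is not known. In such tissue a change in the mix of cells and a change of methylation within cells cannot be told apart.

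In mammals DNA methylation sits mostly on the cytosine of CpG, a cytosine followed by a guanine. Promoters dense in CpG are usually free of it, while gene bodies and the space between genes usually carry it. Heart muscle cells are a minority of the nuclei of the heart, and after a coronary occlusion they die within hours while neutrophils begin to enter. Methylated DNA immunoprecipitation sequencing (MeDIP-seq) pulls down sheared DNA with an antibody against methylated cytosine and sequences it. A peak is a stretch where such fragments pile up; a missing peak can be methylation below the caller's threshold, and a peak gives no percentage of methylated molecules.

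Each library had its own peak list. Sham replicates 1 to 3 held 49404, 60130 and 44328 peaks, and the 6 h replicates held 43071, 50535 and 34255. The 6 h mean was 42620.3 ± 8149 and the sham mean 51287.3 ± 8068 (SD, n = 3 each), a difference of -8667 peaks that the spread of the replicates covered (exact permutation p = 0.3, two-sided). Every p in this paragraph and the next comes from that test over 20 assignments of the 6 libraries, which cannot go below 0.1, and from 5 measures with an adjusted p between 0.5 and 0.8. The genome under peaks was 49.5, 62.7 and 51.7 Mb in sham and 47.6, 57.7 and 42.7 Mb at 6 h (means of 54.6 ± 7.07 and 49.3 ± 7.63, SD, n = 3; exact permutation p = 0.4). The groups overlapped in both measures. Peaks at 6 h were wider in the median, at 991, 1018 and 1120 bases against 900, 938 and 1040 bases in sham, also with overlap (difference 83.7 bases, exact permutation p = 0.3). The median of the deposited peak score, whose scale is not stated and which served here to rank peaks, was 71.1, 72.0 and 69.2 at 6 h and 72.1, 75.4 and 70.6 in sham. Sham replicate 2 had the longest list and the highest median score of the 6, and 6 h replicate 3 the shortest list and the lowest.

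The share of peaks inside a gene of any kind, counted where any base of a peak touched a gene, was the 1 measure whose groups did not overlap. It was 56.0%, 56.3% and 55.3% at 6 h and 56.5%, 58.0% and 56.3% in sham, so that the highest 6 h library (56.27%) lay just under the lowest sham library (56.29%). The difference of -1.10 percentage points had the smallest p that 3 against 3 libraries allow (exact permutation p = 0.1, adjusted p = 0.5). It was -0.524 points when the same number of peaks was taken from each library, and the groups then overlapped (exact permutation p = 0.2). Without sham replicate 2 it was -0.565 points. Peaks at the ends of protein-coding genes (2000 bases outside to 500 bases inside either end) made up 5.96% ± 0.0760 at 6 h and 6.03% ± 0.212 in sham (SD, n = 3 each), a difference within the spread (exact permutation p = 0.8). With each peak placed by its midpoint, the 2 measures changed places. Inside genes the difference was then -1.16 points with overlap (exact permutation p = 0.2, not adjusted). At gene ends it was -0.239 points without overlap (exact permutation p = 0.1, not adjusted).

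**Figure D1:**
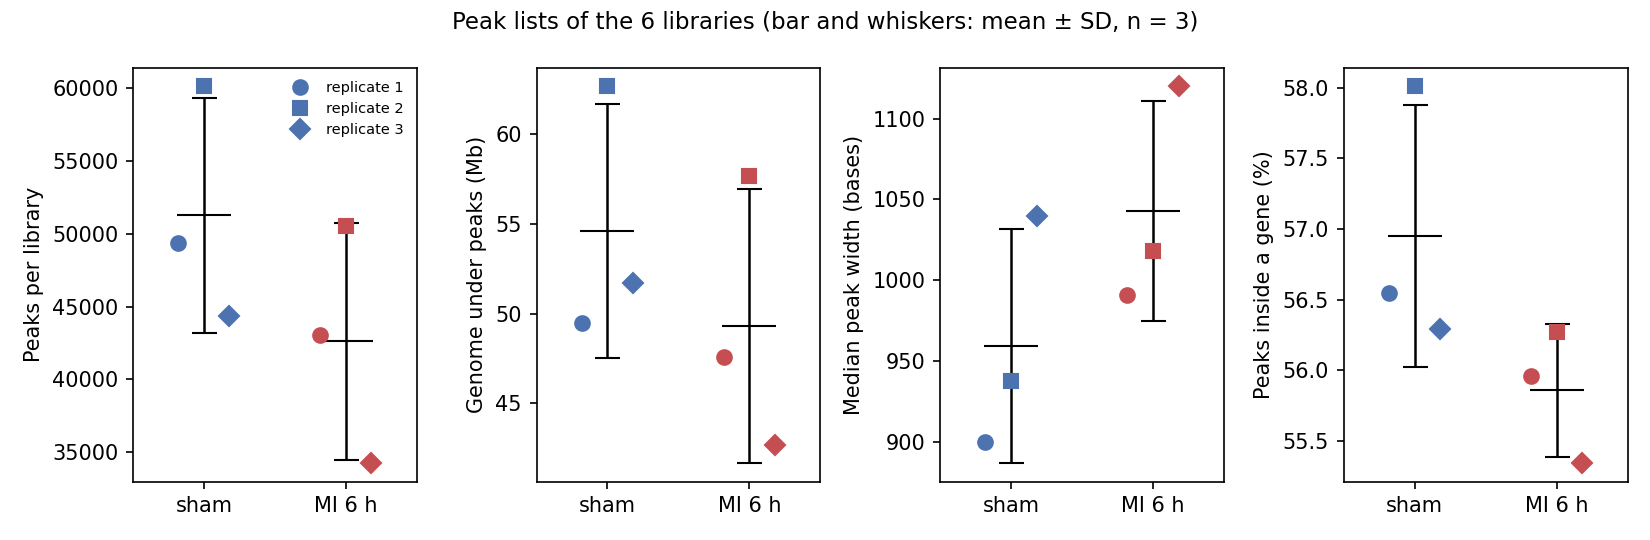
Each point is 1 library, by replicate, with sham in blue and MI 6 h in red; the panels give peaks per library, genome under peaks in Mb, median peak width in bases and the percentage of peaks inside a gene, with the mean and SD of 3 libraries. The y axes do not start at 0. The groups overlap in the first 3 panels, and in the fourth the highest 6 h library (56.27%) lies just under the lowest sham library (56.29%).

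Libraries of a group resembled each other about as much as libraries of different groups. Similarity of a pair was the length that both had under peaks as a share of the length that at least 1 of them had. It was between 0.352 and 0.371 for the 3 pairs of 6 h libraries and between 0.359 and 0.374 for the 3 sham pairs. The 9 pairs of a 6 h and a sham library ran from 0.326 to 0.379, so both the most and the least similar pair crossed the groups, and none of the libraries was a copy of another. With equal numbers of peaks the means were 0.361 at 6 h, 0.362 in sham and 0.361 between them.

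Peaks of the 6 libraries were merged where they shared at least 1 base, for a total of 106205 regions (median width 1050 bases). A region was called gained with a peak in 3 of 3 libraries at 6 h and 0 of 3 in sham, and lost in the opposite case. Gained regions numbered 305, which is 0.287% of all regions, and lost regions 1080, or 1.02%. Leaving out any 1 of the 6 libraries, which leaves 5 to meet the rule, gave between 652 and 1426 gained and between 1670 and 3717 lost regions. In comparison, 12520 regions (11.8%) had a peak in all 6 libraries and 41984 in 1 of them. No single region can pass a test here, because the smallest p of 3 against 3 libraries is 0.1, so the positions below are a description. Just outside the rule lay 2452 regions with a peak in 2 libraries at 6 h and 0 in sham and 1230 with 3 and 1, and on the other side 5670 with 0 and 2 and 2914 with 1 and 3.

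The surplus of lost over gained regions moved with the length of the lists. With the 34255 top-scoring peaks of every library, the length of the shortest list, 417 regions were gained (0.527% of 79148) and 465 lost (0.588%). The regions found with all peaks and with equal numbers were only in part the same: 141 gained regions were shared, 46.2% of the first set and 33.8% of the second, and 250 lost regions, 23.2% and 53.8%. Of the 417 regions gained with equal numbers, 159 had a lower-scoring peak in 1 sham library, 90 in 2 and 27 in all 3. Of the 465 lost regions, 186 had one in 1 library at 6 h, 29 in 2 and 0 in all 3. Among peaks with a score of at least 100, of which 6 h libraries had 8476, 10841 and 5927 and sham libraries 10858, 16010 and 8666, 32 regions were gained (0.124% of 25738) and 269 lost (1.05%). Counting a library only where its peaks covered 50% of the region gave 417 gained (0.393%) and 1003 lost regions (0.944%), and merging peaks up to 500 bases apart gave 301 (0.29%) and 1074 (1.03%). The part of list length in the surplus was not tested further.

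**Figure D2:**
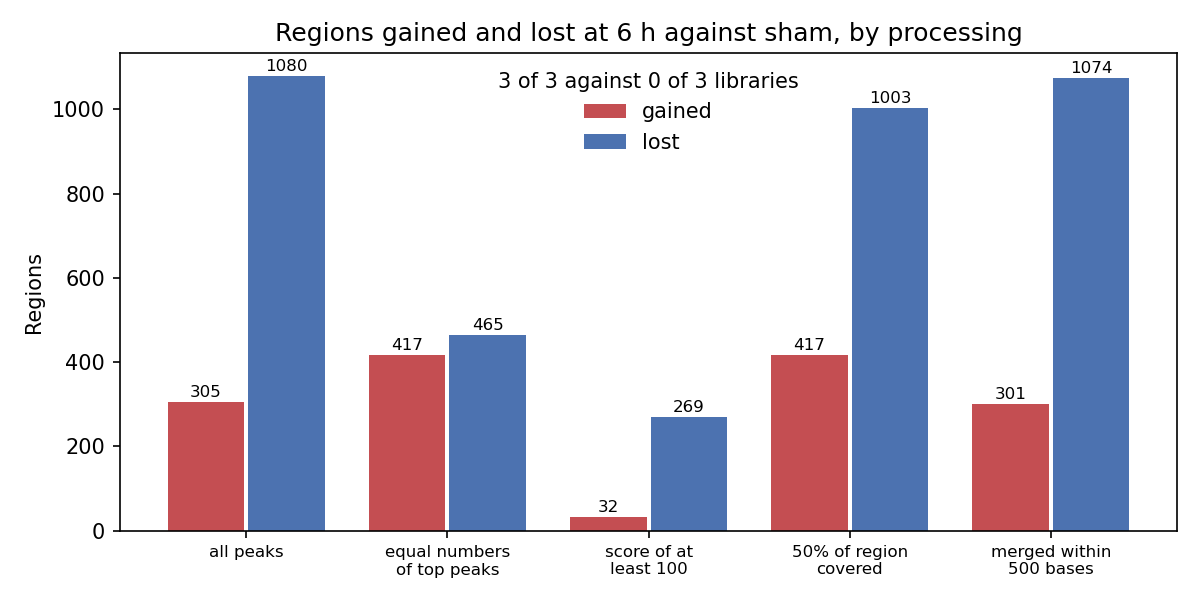
Bars give the number of regions gained (red) and lost (blue) at 6 h against sham under 5 ways of processing the peak lists, with the number above each bar. Lost regions outnumber gained ones 1080 to 305 with all peaks and 465 to 417 with equal numbers of top-scoring peaks.

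Both kinds of region were made of low-scoring peaks. The mean score of the 3 peaks had a median of 67.2 over gained regions (quartiles 61.2 and 74.8) and 69.1 over lost regions (62.6 and 76.6), where the lowest score in every list was 50. Regions with a peak in 3 of the 6 libraries but in both groups, called mixed here, had a median of 68.7, and regions with a peak in all 6 libraries 105.1. Gained regions were 1186 bases wide in the median, lost regions 1135, mixed regions 1156 and regions of all 6 libraries 1639.

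The positions of the regions are given as counts, without a test. Lost regions were inside a gene in 63.8% of cases and gained regions in 57.7%, against 58.5% of all regions and 59.3% of mixed regions. With equal numbers of peaks the shares were 64.7%, 54.0% and, over all regions, 57.6%. Genes of long noncoding RNAs held 12.3% of lost, 8.85% of gained and 10.0% of all regions, but with equal numbers of peaks 13.3%, 11.8% and 9.83%. Farther than 100 kb from any protein-coding gene lay 20% of gained, 13.1% of lost and 17.6% of all regions (20.6%, 15.1% and 18.6% with equal numbers). Ends of protein-coding genes held 19 gained regions (6.23%) and 69 lost ones (6.39%), close to the 6.21% of all regions. They held 5.04% of gained, 4.95% of lost and 6.15% of all regions with equal numbers of peaks. The regions were spread over all 21 chromosomes: lost regions were between 0.859% of the regions of a chromosome (chromosome 4) and 1.33% (chromosome 9), and gained regions between 0.156% (Y, 2 regions) and 0.417% (chromosome 19, 12 regions). None of the 1005 microRNA hairpins of the RefSeq table lay in a gained or lost region, and 106 lay in a merged region. With 0.287% of all regions gained and 1.02% lost, 106 are too few to read this as a trait of microRNA genes.

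The regions ranked highest by mean score, among those that were gained or lost both with all peaks and with equal numbers, are given next with the score in each library and positions in mm10. The gained list was led by chr4:51239422-51241203 within Cylc2, which encodes a protein of the sperm head. Its scores at 6 h were 139, 111 and 108 (mean 119.5 ± 17.2, SD, n = 3), and it was the 1 gained region of the 10 named whose 3 peaks all stood at or above 100. The second, chr2:53551580-53552213, lay in the pseudogene Gm13503, with scores of 71.1, 109 and 144. The third, chr3:84870282-84870955, lay within Fbxw7, the substrate receptor of a ubiquitin ligase that marks cell cycle and Notch proteins for destruction, and had scores of 122, 104 and 84.2. That region had a peak in 1 of the 12 libraries of the other MI times. Within Cep290, a protein of the base of the cilium, chr10:100497319-100498305 had scores of 82.8, 158 and 67.6. A region 11 kb from Fam107a, an actin-binding stress protein, followed (chr14:8284637-8285266, scores 129, 123 and 54.4).

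Of the remaining 5 gained regions, 3 lay in protein-coding genes. They were Lrp1b, an endocytic receptor of the LDL receptor family (chr2:41534628-41535518, scores 76.3, 72.7 and 154), the zinc finger gene Zfp850 (chr7:27988588-27989742, scores 124, 97.9 and 81.4) and Klhl1, a brain-expressed actin-binding protein (chr14:96157852-96158464, scores 88.5, 109 and 105). The others lay in the long noncoding RNA gene Mir670hg (chr2:94213705-94214395, mean score 99.6 ± 21.5) and 4.19 kb from Gm36477 (chr14:76058559-76059689, mean score 97.1 ± 50.9; SD, n = 3 each). The regions in Cep290, in Lrp1b and near Gm36477 owed their rank to 1 library each, which scored 158, 154 and 156 where the highest of the others scored 82.8, 76.3 and 71.0.

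The named lost regions had mean scores from 108.4 to 134.8, and the named gained ones from 97.1 to 119.5. The first lost region lay 23.1 kb from Gm39601 and 334 kb from the nearest protein-coding gene, Spred2 (chr11:19589239-19590748), with sham scores of 94.3, 164 and 146 (mean 134.8 ± 36.1, SD, n = 3). The second was the most even. It lay within Cyrib, a protein that binds the GTPase Rac1 (chr15:64003900-64006131), and had scores of 134, 127 and 135 (mean 132.2 ± 4.14, SD, n = 3). The third lay within Snap25, a membrane fusion protein of synapses (chr2:136721709-136722393, scores 134, 105 and 124). These regions in Cyrib and Snap25 were the 2 of the 10 in which all 3 sham peaks stood at or above 100. Within Kit, the receptor of stem cell factor, chr5:75608807-75609846 had scores of 126, 126 and 89.5. A region within Nxpe4 (chr9:48268647-48269470) had scores of 118, 83.9 and 127.

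The remaining lost regions of the 10 lay outside protein-coding genes. One was 4.81 kb from Gm25919 and 14.4 kb from Mfsd1, a lysosomal transporter (chr3:67567049-67568348, scores 170, 107 and 65.6). Another was 14.6 kb from Gm9795, with Gja1 as the nearest protein-coding gene at 281 kb (chr10:56671708-56672669, scores 118, 145 and 79.5). The region 40.3 kb from Psmd7, a subunit of the proteasome (chr8:107628777-107630462), owed its rank to sham replicate 2, with scores of 71.0, 187 and 69.6. With peaks merged up to 500 bases apart it no longer met the rule. The last ones lay in the small nuclear RNA gene Gm24540 (chr14:73767519-73768338, mean score 108.5 ± 53.3) and 23.0 kb from Rpl19-ps4 (chr14:13753144-13754722, mean score 108.4 ± 37.8; SD, n = 3 each). Of the 12 libraries at 10 min, 1 h, 24 h and 72 h, a peak was found in 5 (near Gm25919) to 11 (in Cyrib, in Kit and near Rpl19-ps4) at the 10 lost regions, and in 1 (in Fbxw7) to 9 (in Zfp850) at the 10 gained ones.

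**Figure D3:**
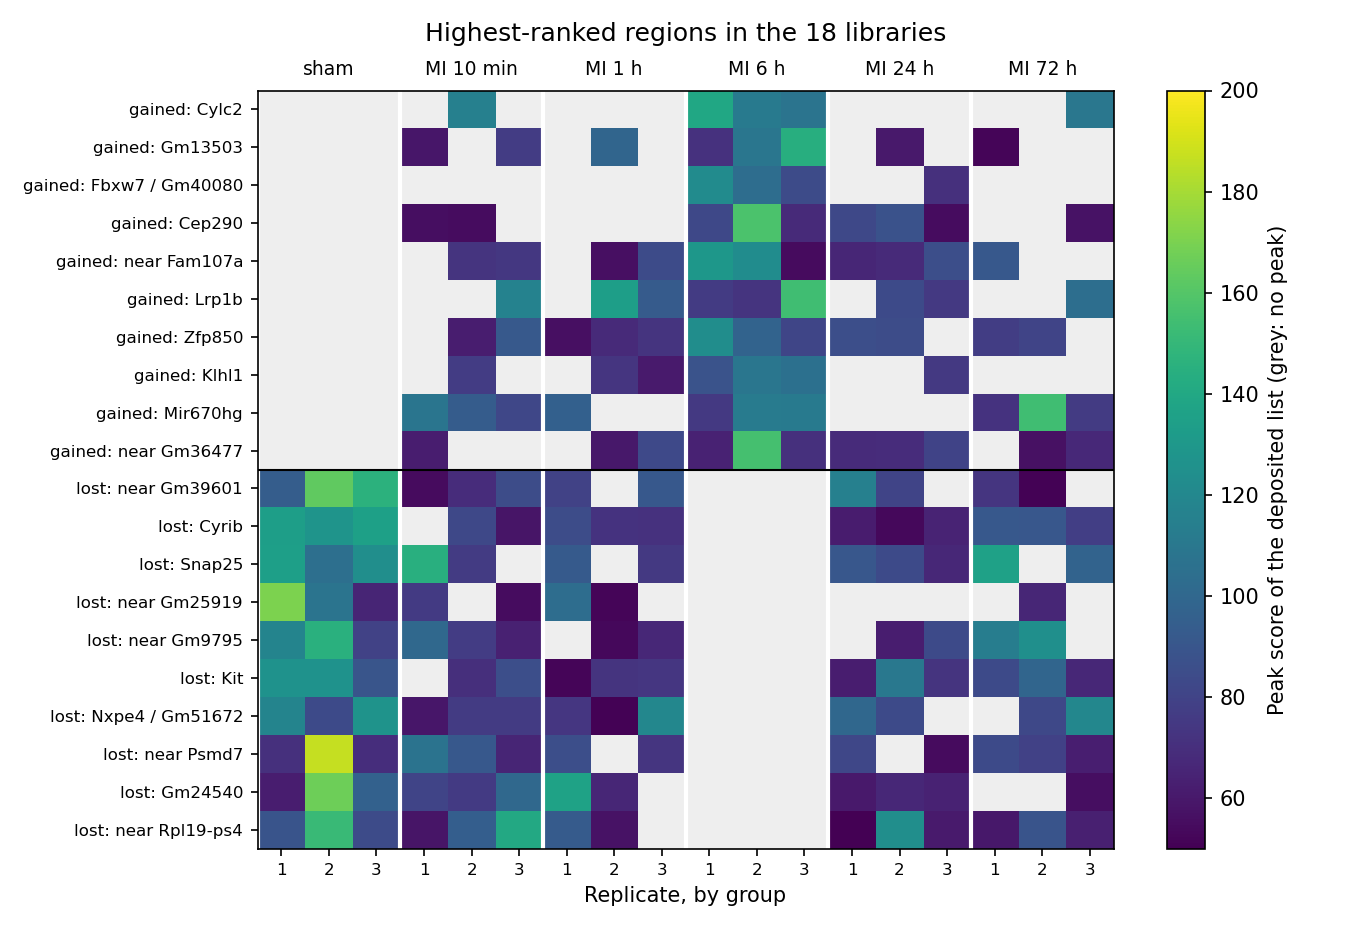
Rows are the 10 gained and 10 lost regions with the highest mean score, named by the gene they lie in or near, and columns are the 18 libraries by group and replicate; colour is the peak score and grey means no peak. By the rule, gained rows are grey in sham and lost rows at 6 h, and the lost regions in Cyrib and Kit and near Rpl19-ps4 have a peak in 11 of the 12 other MI libraries.

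The regions were then set against the 12 MI libraries that had no part in choosing them. Gained regions touched a peak in 33.3% ± 1.24 of cases for 10 min, 37.1% ± 4.51 for 1 h, 36.3% ± 2.79 for 24 h and 42.3% ± 2.80 for 72 h (3 libraries each, SD). Lost regions touched one in 42.3% ± 10.2, 42.5% ± 0.950, 46.4% ± 5.43 and 50.8% ± 10.5 of cases, in the same order. The share was lower for gained than for lost regions in 10 of 12 libraries with all peaks and in 9 of 12 with equal numbers. Equal numbers were taken from these 12 libraries only, while the regions stayed those called from all peaks of the 6. Those 6 lists differed in length, with longer sham lists on average, and the part of this in the pattern was not tested. The exceptions with all peaks were 10 min replicate 2 (32.5% gained, 31.5% lost) and 72 h replicate 3 (44.9% and 38.8%). Mixed regions gave 40.8%, 40.8%, 44.5% and 50.4% on average, and gained regions lay below them in 11 of 12 libraries. Their lists differed in length, from 37084 to 60653 peaks. Median peak width, 1137 bases in 10 min replicate 2 and 1011 in 72 h replicate 3, was between 824 and 988 in the other 10 libraries, and its part in this pattern was not tested.

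**Figure D4:**
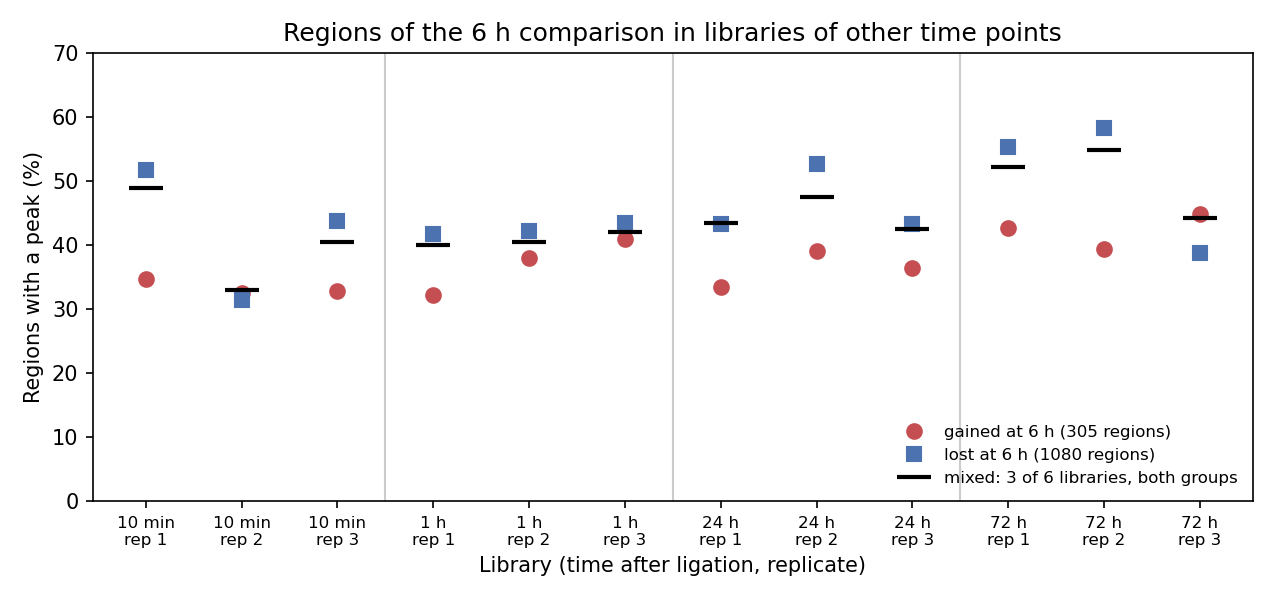
For each of the 12 libraries of the other MI times, points give the percentage of the 305 gained regions (red circles), of the 1080 lost regions (blue squares) and of the mixed regions (black bars) that touch a peak of that library. Gained lies below lost in 10 of 12 libraries; 10 min replicate 2 and 72 h replicate 3 are the exceptions.

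Some regions set the 6 h libraries apart from all 15 others. They were picked after their values were seen. A peak in every library except the 3 at 6 h was found in 7 lost regions, 0.648% of them, and mixed regions had a peak in all 12 other libraries at nearly the same share (0.614%). The one whose weakest peak was highest lay within Adamts3, a protease that processes procollagen (chr5:89708027-89709057), with scores from 79.5 to 173 over its 15 libraries and a median of 100.7. The others lay within Gm28802 (chr1:58894333-58895660, sham mean 106.7 ± 21.4) and within Dnajc16, a chaperone gene (chr4:141782208-141783830, sham mean 78.2 ± 21.3; SD, n = 3 each). Outside genes they lay 17.0 kb from Irf4, a transcription factor of lymphocytes (chr13:30731222-30732266), and on chromosome 18 at 9.76 kb from Ss18, 7.35 kb from Gm41658 and 15.4 kb from Gm41704. In the region within Dnajc16 peaks covered 50% of the region in 1 of 3 sham libraries only. With equal numbers of peaks, the regions within Dnajc16 and near Ss18 kept a peak in 2 of 3 sham libraries and that near Gm41704 in 1.

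Conversely, 8 gained regions (2.62%) had a peak in the 3 libraries at 6 h and in no other library; of mixed regions 2.24% had none in the 12 other libraries. They lay within Mettl24, Gas7, Mapk10 and Igdcc3, 0.733 kb from Wasf1, 3.18 kb from Gm38748, 48.5 kb from Gm26139 and 206 kb from Gm38778. Mapk10 encodes the stress kinase JNK3 and Wasf1 a regulator of actin branching. Their scores were low, between 50.4 and 96.0, and with equal numbers of peaks the region within Mettl24 alone (chr10:40745959-40747279, scores 67.3, 64.2 and 53.5) kept a peak in 3 of 3 libraries at 6 h.

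Regions at the ends of protein-coding genes were named by the same ranking, among those called both with all peaks and with equal numbers. The 5 named gained ones included one at Hk2, hexokinase 2, which traps glucose in the cell for glycolysis (chr6:82725441-82726833). Its scores at 6 h were 61.0, 97.5 and 69.8 (mean 76.1 ± 19.1, SD, n = 3), and it had a peak in 1 library at 1 h and 1 at 72 h. The other gained gene ends were those of Gm21304 (chr10:104166823-104167499, mean score 96.2 ± 34.8), of the nociceptin receptor gene Oprl1 (chr2:181722648-181723359, 83.3 ± 7.78), of Pudp (chr18:50567695-50569312, 81.5 ± 21.4) and of Keg1 (chr19:12693845-12694991, 72.0 ± 12.0; SD, n = 3 each). Lost gene ends were led by the X-linked homeobox gene Rhox9 (chrX:37900909-37902244, scores 91.2, 147 and 71.0 in sham). Next came Nnt, the transhydrogenase that makes NADPH in mitochondria (chr13:119335778-119336617, scores 98.0, 89.7 and 79.7); all 3 libraries at 24 h and at 72 h had a peak there, and 1 of 6 at 10 min and 1 h. They continued with Usp26 (chrX:51800389-51802350, mean 86.8 ± 5.14), with Nfib, a transcription factor (chr4:82290224-82291298, 85.2 ± 22.4), and with the chloride transporter gene Clcn4 (chr7:7302378-7303231, 84.3 ± 9.45; SD, n = 3 each).

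Promoters were looked at through windows of 300 bases, from 250 before to 50 after each transcription start of the RefSeq table (GRCm38.p6, the assembly that mm10 names), 32851 windows of 27025 genes. Few were touched by a peak: 2.29%, 2.72% and 2.08% at 6 h and 2.51%, 3.50% and 2.45% in sham. Only 3 windows were gained (0.00913%) and 15 lost (0.0457%), and a peak in all 6 libraries was found at 203. Counted by merged regions that touch a window, the balance turned with the number of peaks: 1 gained (0.328%) and 15 lost regions (1.39%) with all peaks, and 9 gained (2.16%) and 6 lost (1.29%) with equal numbers. In all 3 gained windows, those of Fam177b, Tulp2 and Gm39317, the merged region around the window had a peak in at least 2 sham libraries, so the call came from where a peak ended. Among the lost windows, 12 lay in a lost region, and 4 of these belong to protein-coding genes. Their 250 bases before the start are printed as the promoter sequences whose peak was lost at 6 h when all peaks are counted. Every CpG, the site that the antibody's target occupies, is in capitals.

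Abca4: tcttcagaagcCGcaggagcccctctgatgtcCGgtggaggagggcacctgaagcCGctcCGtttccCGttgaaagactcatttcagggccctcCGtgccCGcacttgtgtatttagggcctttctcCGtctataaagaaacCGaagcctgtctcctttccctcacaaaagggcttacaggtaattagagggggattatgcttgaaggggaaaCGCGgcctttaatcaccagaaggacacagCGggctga
Gm36327: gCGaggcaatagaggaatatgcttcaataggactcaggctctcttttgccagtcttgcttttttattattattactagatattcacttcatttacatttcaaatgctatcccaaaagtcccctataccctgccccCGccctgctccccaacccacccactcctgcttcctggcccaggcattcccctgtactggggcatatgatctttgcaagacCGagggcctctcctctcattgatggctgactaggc
Igflr1: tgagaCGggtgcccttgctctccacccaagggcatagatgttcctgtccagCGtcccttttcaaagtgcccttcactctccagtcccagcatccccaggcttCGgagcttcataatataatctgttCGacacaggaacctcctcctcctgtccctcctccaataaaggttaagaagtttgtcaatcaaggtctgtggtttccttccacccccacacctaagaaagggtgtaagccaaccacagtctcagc
Usp26: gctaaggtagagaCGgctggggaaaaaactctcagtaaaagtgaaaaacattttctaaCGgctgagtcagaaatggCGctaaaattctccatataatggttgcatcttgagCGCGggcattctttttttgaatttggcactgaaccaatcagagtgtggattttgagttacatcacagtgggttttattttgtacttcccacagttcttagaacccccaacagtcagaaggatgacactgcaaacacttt

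The Abca4 stretch (chr3:122044210-122044459, plus strand; a lipid transporter of the retina) holds 12 CpG, and peaks scoring 51.0, 79.8 and 90.9 covered the whole window in the 3 sham libraries. That of Igflr1, a receptor of the TNF receptor family (chr7:30565177-30565426, plus strand), holds 4 CpG, and peaks covered 232, 254 and 257 of its 300 bases with scores of 67.6, 60.6 and 67.9. Usp26, an X-linked deubiquitinase of the testis (chrX:51801234-51801483, minus strand), has 5 CpG there and scores of 92.2, 60.3 and 82.0. Gm36327 (chr6:47675332-47675581, plus strand) has 3 CpG and scores of 115, 52.7 and 55.8. No score at Abca4, Igflr1 and Usp26 reached 100. With equal numbers of peaks, a peak of 57.7 in sham replicate 1 and one of 67.3 in sham replicate 2 were left out at Csmd2. Scores were lower than these in replicate 1 at Abca4 and in replicate 2 at Igflr1, Gm36327 and Usp26. None of the 4 windows thus kept a peak in 3 of 3 sham libraries, although the merged region at Usp26 did. At Abca4 a peak was also found in 2 libraries at 10 min, 1 at 1 h, 1 at 24 h and 2 at 72 h.

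How often a promoter window had a peak varied more with its CpG number than with the group. In windows with 6 to 11 CpG a peak was found in 6.40%, 9.32% and 6.18% of cases in sham and 5.46%, 6.79% and 5.31% at 6 h. Windows with 0 to 2 CpG gave 1.42% ± 0.418 in sham and 1.19% ± 0.180 at 6 h, and windows with 21 or more gave 0.291% ± 0.0431 and 0.270% ± 0.0885 (SD, n = 3 each). The 2 groups overlapped in every class of CpG number. Lost windows had a median of 5 CpG, windows with a peak in all 6 libraries 8, and all windows 7.

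**Figure D5:**
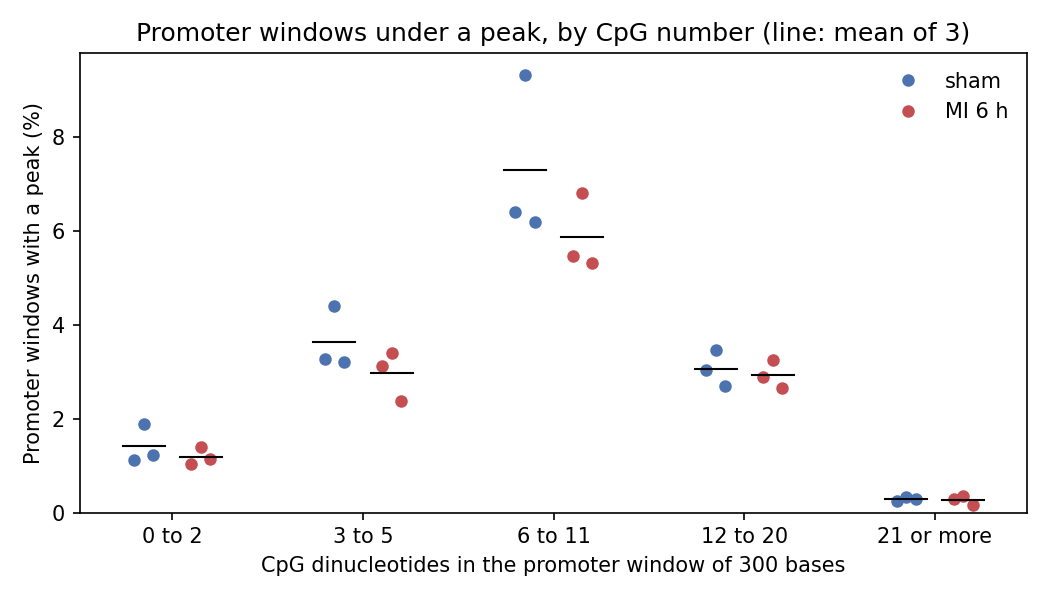
Each point is 1 library (blue sham, red MI 6 h) and gives the percentage of promoter windows of 300 bases with a peak, for windows grouped by their number of CpG; lines are means of 3 libraries. The share is highest at 6 to 11 CpG and lowest at 21 or more, and the groups overlap in every class.

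Gene groups that fit infarcted heart were followed through 13 lists of 20 genes each. Of all 21887 protein-coding genes, 0.726% had a gained region within the gene or 2000 bases of it and 2.81% a lost one. Of the 260 list genes, 1 had a gained region (0.385%) and 8 a lost one (3.08%), close to those shares. Across the lists of contractile, mitochondrial fuel, immediate early and stress, inflammation and leukocyte genes, no gene had either. For each gene the share of its span, with 2000 bases on either side, that lay under peaks was also taken. It was lower in all 3 libraries at 6 h than in every sham library for 7 list genes (2.69%) and higher for 3 (1.15%), against 3.6% and 1.47% of all protein-coding genes. With equal numbers of peaks this turned, with 5 lower (1.92%) and 12 higher (4.62%) in the lists and 1.62% and 2.55% of all genes, so that the balance of lower and higher genes has no direction that holds under both choices.

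Genes of glycolysis and the hypoxia response gave the 1 gained list gene, Hk2. Its span lay under peaks for 4.43%, 1.89% and 6.23% at 6 h and 1.14%, 1.55% and 1.38% in sham. Eno1, the glycolytic enzyme enolase 1, had 8.82%, 5.73% and 7.02% at 6 h and 0%, 3.99% and 0% in sham, without a gained region. Both genes had no overlap between the groups with all peaks and with equal numbers. The list as a whole had 2.66%, 3.78% and 2.70% of its span under peaks in sham and 3.17%, 2.94% and 3.27% at 6 h, with overlap.

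Among genes that write, remove and read DNA methylation, Dnmt3l had a lost region. Dnmt3l encodes the partner of the de novo methyltransferases, and the region lay within it (chr10:78057137-78058106, sham scores 63.7, 82.3 and 83.4). No peak at all was found at Dnmt3l at 6 h, while sham had 3.58%, 6.87% and 3.76% of its span under peaks. Dnmt1, the maintenance methyltransferase, had 0%, 1.54% and 0% at 6 h and 3.36%, 4.25% and 2.15% in sham. Tet3, an enzyme that oxidises methylcytosine, had 0%, 1.13% and 0.991% at 6 h and 2.23%, 3.08% and 3.54% in sham. With all peaks these were the 3 genes of the 20 that were lower in all 3 libraries at 6 h, and 0 were higher. The groups overlapped at their relatives Tet1, Tet2, Dnmt3a and Dnmt3b. There the 6 h mean was higher at Tet1 and Tet2 and lower at Dnmt3a and Dnmt3b. With equal numbers of peaks Dnmt3l stayed lower, while the groups overlapped at Dnmt1 and Tet3. The list of 20 had 2.41%, 2.50% and 2.21% under peaks at 6 h and 2.71%, 3.98% and 2.95% in sham, 1 of 2 lists whose groups did not overlap. The other was inflammation, with 2.51%, 2.56% and 2.46% at 6 h and 2.80%, 3.14% and 2.94% in sham. All protein-coding genes together had 2.01%, 2.47% and 1.78% at 6 h and 2.14%, 2.83% and 2.22% in sham. These totals are from all peaks and were not taken with equal numbers, so whether the 2 lists then stay apart is not known.

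In the list of calcium and ion channel genes the 1 gene with lost regions was Cacna1c, the pore of the L-type calcium channel that triggers each heartbeat. It had 2 (chr6:118711564-118712436, mean sham score 58.4 ± 5.99, and chr6:118829324-118830179, 61.7 ± 7.79; SD, n = 3) among 38 regions at the gene. Peaks covered 1.84%, 1.61% and 1.53% of it at 6 h and 1.99%, 2.59% and 2.62% in sham, and the groups overlapped with equal numbers of peaks. Endothelial genes with a lost region were Erg, a transcription factor (chr16:95409675-95411173, scores 83.0, 65.2 and 67.7), and Flt1, a VEGF receptor (chr5:147665189-147666618, scores 52.0, 54.0 and 75.7). The cell death activator Bcl2l11 (chr2:128124543-128125647, mean 62.9 ± 13.2), the heart transcription factor Mef2d (chr3:88156084-88157057, 67.5 ± 21.9), the growth factor Tgfb2 (chr1:186710314-186712641, 0.616 kb outside the gene, 60.1 ± 5.29) and the imprinted gene Inpp5f (chr7:128677462-128678403, 75.6 ± 21.1; SD, n = 3 each) had 1 each. Apart from Dnmt3l, none of these lost regions kept a peak in all 3 sham libraries when equal numbers were taken. At Nfkb1, a subunit of the inflammatory factor NF-kappa-B, the span under peaks was 1.44%, 1.15% and 1.04% at 6 h and 3.46%, 2.88% and 2.08% in sham, also without overlap with equal numbers, though no region was lost. The same held at Bid, which links death receptors to mitochondria, with 0%, 4.53% and 0% at 6 h and 7.35%, 6.50% and 6.18% in sham. Col1a1, a chain of collagen I, was the third list gene with more of its span under peaks at 6 h, at 9.67%, 9.81% and 9.78% against 8.56%, 9.45% and 0%, which in sham replicates 1 and 2 is a small margin. Nos3, the endothelial nitric oxide synthase, had 2.50%, 0% and 0% at 6 h and 4.09%, 4.33% and 4.46% in sham, and the groups overlapped with equal numbers.

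Of the contractile genes, which define heart muscle cells, 16 of 20 had a peak of any of the 6 libraries, as did 14886 of all 21887 protein-coding genes. Tnnc1, Myl3, Myl7 and Tcap had none. Ttn, the giant spring of the sarcomere, had 3.20%, 2.68% and 2.61% under peaks at 6 h and 3.58%, 5.89% and 2.63% in sham. Peaks covered 2.24%, 2.55% and 2.11% of the contractile list at 6 h and 2.49%, 4.31% and 2.01% in sham, with overlap. Of the leukocyte list 10 of 20 genes had no peak, against 7001 of the 21887 protein-coding genes. Most of these 10 were shorter than the median protein-coding gene of 17.2 kb, and gene length was not matched. The share of the span of the leukocyte list under peaks was 1.47%, 1.14% and 1.25% at 6 h and 1.24%, 2.17% and 1.41% in sham. Peaks do not report expression, so the labelled cell type could not be checked with these genes.

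Some genes held several regions of one kind. Protein-coding genes with at least 2 lost regions numbered 30, with a median span of 353 kb against 17.2 kb for all protein-coding genes, and 2 had at least 2 gained regions. At a few shorter genes the lost regions made up most of the regions there. Cat encodes catalase, which breaks down hydrogen peroxide. It had 3 merged regions, 2 of them lost (chr2:103465170-103466363, sham scores 72.4, 89.8 and 54.4, and chr2:103473779-103475276, scores 53.7, 57.7 and 51.7), and no peak at 6 h, against 6.79%, 8.94% and 7.60% of its span in sham. With equal numbers of peaks 1 sham library had none there either, and the second region had none in any. Of the 12 other MI libraries, 1 had a peak at the first region and 4 at the second. Apc2, a relative of the tumour suppressor Apc, had 2 lost regions of 3 (chr10:80308239-80309664 and chr10:80317621-80318775, mean sham scores 69.7 ± 16.4 and 70.9 ± 18.1, SD, n = 3) and 0%, 1.87% and 0% under peaks at 6 h against 7.54%, 8.57% and 9.13%, without overlap also with equal numbers, although each region then had a peak in 2 of 3 sham libraries only. Ypel2 had 2 lost regions of 3, with 0%, 0.763% and 0% against 1.83%, 2.83% and 3.06%, but with equal numbers the groups overlapped.

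Lost regions numbered 3 each at Csmd2, Frmd5, Vti1a and a group of overlapping gene models on chromosome 18 (Gm37013, Gm38666 and Gm38667) that share the same 3 regions. One of these lay at the end of the protocadherin gene Pcdhb17. At Gm37013, 32, 28 and 30 regions had a peak in sham and 22, 31 and 27 at 6 h, of 53, with overlap. Of its lost regions, only chr18:37836638-37837830 was lost with equal numbers too. Vti1a, a membrane fusion protein of the Golgi, had 13, 14 and 6 regions with a peak in sham and 3, 8 and 4 at 6 h, of 25. At Frmd5 the numbers were 5, 6 and 6 in sham and 5, 4 and 1 at 6 h, of 13, and 2 of its 3 lost regions were lost with equal numbers too. Csmd2 had 18, 30 and 18 in sham and 12, 14 and 11 at 6 h, of 43. None of the lost regions of Csmd2 and Vti1a was lost with equal numbers of peaks. The span of Csmd2 under peaks was then 1.07%, 1.99% and 1.72% in sham and 1.79%, 1.39% and 2.36% at 6 h, with overlap. That of Vti1a was then 1.81%, 2.18% and 2.64% in sham and 1.13%, 1.31% and 1.60% at 6 h, without overlap. The span of Frmd5 was also lower at 6 h without overlap. With all peaks the groups overlapped at Vti1a and Frmd5. On the gained side stood Lrp1b, with 2 gained of 30 regions over 2058 kb, and Septin10, a cytoskeletal GTPase, with 2 of 7 (chr10:59141436-59142696 and chr10:59167174-59168220, mean scores 56.4 ± 6.88 and 68.1 ± 15.5, SD, n = 3). Peaks covered 3.30%, 4.70% and 3.44% of Septin10 at 6 h and 1.70%, 0% and 0.553% in sham, and the groups did not overlap with equal numbers either, but neither of its regions was then gained, since 1 library at 6 h lacked the peak.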

How the data were processed

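Peak lists of 18 MeDIP-seq libraries were used as the authors deposited them; the 6 libraries at 6 h and of sham carried the comparison, and the 12 others were set against the resulting regions. Peaks were called on each library separately. Bowtie2, MACS2 and the build mm10 are named, without versions or roles, per the submitters' processing notes; the caller's options, and whether an input control was sequenced, are not given in the sources used here. Each deposited peak has a score, whose scale the lists do not state; its lowest value was 50 in every list. It was used to rank and filter peaks within a list. The lists hold no read counts, so depth is unknown and no counting interval can be given. DNA was sheared to about 250 bases, per the labels' protocols. The pentobarbital dose is 50 mg/kg in the series' design text; the sample labels start at the same value and climb by 1 from the third MI sample on, up to 63, in the manner of a spreadsheet fill, so the doses on the 6 h labels are not taken as real.

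Peaks were merged, scored as present or absent and set against genes and promoter windows of RefSeq (GRCm38.p6) with Python 3.11.15, numpy 2.4.6 and pandas 2.3.3, and positions are counted from 1. The promoter sequences are those of RefSeq; at 1629 pairs of overlapping windows on opposite strands the sequences matched in 1629. Region calling was run on simulated lists with planted regions that met the rule by design. That checks the code and gives no rate of false calls. Named were the 10 gained and 10 lost regions with the highest mean score (within a region and library the highest peak counts), the 5 each at gene ends, list genes with a gained or lost region, and genes with at least 2. Regions ranked by score, those at gene ends included, were drawn from regions called both with all peaks and with equal numbers. Members, lists and rules were chosen with earlier results of these data known. Replicates are separate mice per the labels. Adding equal-number values for gene spans and for the other MI times was chosen after seeing the data. Exons and introns were not analysed here.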

Additional observations from a re-analysis of the deposited data

How the results depend on the processing

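The lists carry no depth, weak peaks make up both sets of regions, and with 3 libraries a group no single call can pass a test. Of the 5 library measures, the direction of the difference held for peak number, median width and the share inside genes under every alternative run, in a design that allows no p below 0.1. The genome under peaks was 2.48 Mb higher at 6 h with equal numbers of peaks, against -5.32 Mb with all. Without 1 library at a time the difference ran from -12624 to -4246 peaks, -9.49 to -1.29 Mb, 45.2 to 124 bases, -1.42 to -0.565 points inside genes and -0.172 to 0.0393 points at gene ends, where leaving out sham replicate 2 turned the sign. Libraries of the same replicate number did not deviate together (correlations of 0.001, -0.008 and 0.004 over regions). Those of different numbers did not either (-0.011 to 0.009). The labels do not say what a replicate number shares, and correlations of peak calls cannot exclude a pairing. With a replicate block, whose smallest p is 0.25, the differences were the same (exact sign-flip test of 3 pairs: -8667 peaks, p = 0.25, and gene ends -0.0714 points, p = 0.75). Regions gained were 32 and lost 269 at a score of at least 100, and lost 465 with equal numbers. Dropping any 1 library loosens the rule to 5 libraries and gave 652 to 1426 gained and 1670 to 3717 lost regions. Of 106 single regions named by the rules or counted at the named genes, 46 kept 3 of 3 against 0 of 3 with equal numbers. The regions ranked highest by score were chosen among those called with equal numbers too, so they kept it by selection. The named regions at gene ends were drawn from the same set, so they kept it by selection too. The 46 is thus no measure of stability. With 50% of the region covered 97 kept it, with merging within 500 bases 105 (all but the one near Psmd7), and at a score of at least 100 only 3. None reversed, but no setting allowed that. Equal numbers, the score limit and the 50% rule only remove peaks, and merging removes none.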
